A study of Mus musculus with 36 samples.

Results

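Liver RNA was examined for 10 transcripts that mark B lymphocytes or MHC class II antigen presentation: H2-Aa, H2-Ab1, H2-Eb1 and Cd74 on the class II side, and Cd79a, Cd79b, Ighm, Igkc, Jchain and Ms4a1 on the B lineage side. They were taken as a named list from the 53715 gene identifiers of the count table. All 10 were found there by Ensembl identifier, 8 passed the filter on low counts that left 14068 genes for testing, and Igkc and Ms4a1 had 0 counts in every library. The 36 libraries came from the livers of male C57BL/6 mice, 12 per diet, 1 library per mouse. From 4 weeks of age the mice ate the purified AIN93G diet alone (control), the same diet with 10% powder of red tomato (red), or with 10% powder of tangerine tomato (tangerine). The feeding lasted 6 weeks and the mice were 10 weeks old at sampling. The labels state 11 to 12 mice per group, and no agent, genotype or infection beyond the diets. The comparisons ask whether either tomato, or tomato in general, moved these transcripts, and whether the tomatoes differed.

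MHC class II molecules show peptides from engulfed material to CD4 T cells. An alpha and a beta chain form each molecule, the invariant chain CD74 fills its groove until it reaches the endosome, and H2-DM then loads the peptide. In liver the main class II bearing cells are dendritic cells, Kupffer cells (the resident macrophages), B cells and, at lower levels, sinusoidal endothelium. B cells read antigen through a membrane immunoglobulin whose signalling partners are CD79A and CD79B, carry CD20 (Ms4a1) on their surface, and become plasma cells that secrete antibody, for which the J chain (Jchain) links IgM and IgA into polymers. In bulk tissue, fewer cells of a type and less RNA per cell cannot be told apart.

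Library totals ran from 21290169 to 33810573 counts. As a check of the tissue label, 5 hepatocyte markers, among them Alb and Apoa1, summed to between 79680 and 117700 CPM (counts per 1000000 after TMM scaling of library size) in every library. Red 186 (the red diet library of mouse 186) stood apart: its 17 T cell markers summed to 365.6 CPM against at most 13.2 in any other library, and its thymocyte markers to 136.5 CPM against at most 9.77. Adipose markers were also highest there, at 10.0 CPM. Tangerine 216 had the most pancreatic enzyme transcripts, at 13.0 CPM against at most 0.429 in any other library, and tangerine 192 had the most neutrophil and monocyte transcripts, at 10.8 CPM. Results that rest on red 186 are given with and without it. The labels name no batch.

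Igkc, the kappa light chain constant region, and Ms4a1, the CD20 gene, could not be read from the table. On the GRCm38 annotation, Igkc (chromosome 6, positions 70726435 to 70726966, plus strand) lies wholly inside the long noncoding gene Gm30211 on the same strand. Ms4a1 (chromosome 19, positions 11249675 to 11266241, minus strand) lies wholly inside the antisense gene 4930526L06Rik on the other strand. The gene around Igkc held 113 counts over all 36 libraries, and the one around Ms4a1 held 5.

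Zeros of this kind went with the position of a gene in the annotation. Of 1246 protein-coding genes whose span lies inside that of another gene, 1237 (99.3%) had 0 counts in every library. The share was 99.8% where the enclosing gene is on the same strand, 99.0% where it is on the opposite strand, and 99.5% where no exon is shared with it. It was 22.8% among the 11931 genes that no other gene overlaps and 5.07% among the 8713 that are partly overlapped. The same position and the same zeros were found for H2-Oa, the alpha chain of the H2-DO regulator of peptide loading, for the lambda constant regions Iglc1 and Iglc3, and for the dendritic cell factor Irf8. B2m, the light chain of MHC class I that nearly every cell makes, was also at 0 inside Patl2 (B2m was picked out after its values were seen). A count of 0 allows 3 counts, which is 0.0846 to 0.150 CPM by library, but this limit holds only for what the table counted. Nothing can be said here of the level of Igkc or Ms4a1. The other 8 members were little affected by position: the exons of 6 of them are free of other genes, as are 90.7% of those of H2-Eb1 and 99.3% of those of Cd74.

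**Figure D1:**
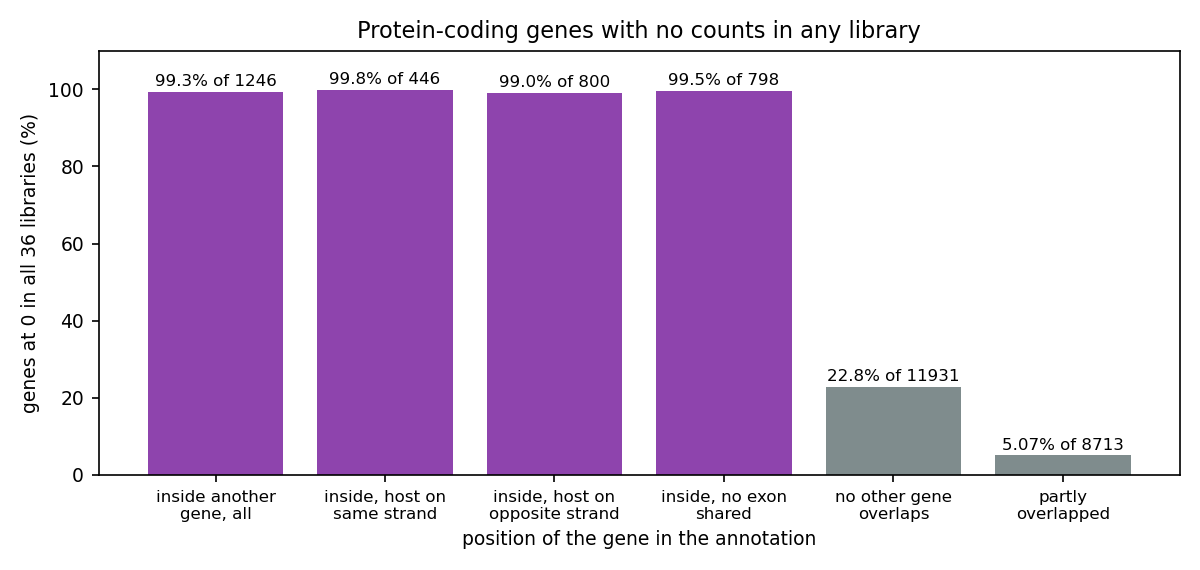
Share of protein-coding genes with 0 counts in all 36 libraries (vertical axis, percent), by where the gene sits in the annotation. Bars for genes inside another gene stand at 99.0% or above on either strand, and the bar for genes that no other gene overlaps stands at 22.8%; Igkc and Ms4a1 lie inside other genes.

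The class II genes are known to be controlled as a set. Their promoters carry a module in which an X region, bound by RFX and CREB proteins, precedes a Y box, bound by NF-Y, and the coactivator CIITA docks on the assembled complex. RefSeq promoter windows (GRCm38.p6, 250 bases before to 50 after the gene start) were at hand for 4 of the 10 members, H2-Aa, H2-Eb1, Cd79a and Jchain, and for 5 further class II genes. Below are 66 bases from H2-Aa and H2-Eb1, and from H2-DMb1 and H2-Ob, a chain each of the peptide loader and of its regulator. They are shown for the Y box GATTGG, which all 4 hold, and for the X region letters that H2-Aa lacks, 5′ to 3′ on the strand of the gene, with the Y box and the letters AACNNATGATGC in capitals.
H2-Aa: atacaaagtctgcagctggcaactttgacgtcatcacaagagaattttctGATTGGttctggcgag
H2-Eb1: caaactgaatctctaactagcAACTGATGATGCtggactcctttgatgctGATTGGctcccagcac
H2-DMb1: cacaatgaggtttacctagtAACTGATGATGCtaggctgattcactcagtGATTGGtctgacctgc
H2-Ob: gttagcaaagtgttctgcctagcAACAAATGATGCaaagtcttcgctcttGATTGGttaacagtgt
They lie at chr17:34287857-34287922 (minus strand), chr17:34305757-34305822, chr17:34153079-34153144 and chr17:34238797-34238862 (plus strand), with the Y box starting 49, 60, 62 and 58 bases before the gene start. GATTGG occurred, on either strand, in 7 of 7 class II windows and in 16.1% of all 32851 windows. AACNNATGATGC occurred on either strand in 4 of the 7 (H2-Eb1, H2-DMb1, H2-DMb2 and H2-Ob) and in 13 of all windows (0.0396%). Both motifs on 1 strand, 5 to 35 bases apart, were found in 4 windows of the genome (0.0122%), and those were these 4 genes. In the sequences shown 17, 18 and 15 bases separate them in H2-Eb1, H2-DMb1 and H2-Ob. The X region letters are the longest stretch before the Y box that H2-Eb1, H2-DMb1 and H2-Ob share with at most 2 differing positions, written N. They were thus taken from these sequences, so the last counts describe the windows and test nothing, and of H2-Aa it can be said only that these exact letters are not in its window.

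Class II transcripts did not differ between diets beyond the spread of the mice. H2-Aa, which encodes the alpha chain of I-A (chromosome 17, positions 34282744 to 34287823), ran from 28.3 to 74.6 CPM (median 45.1) in control, from 29.3 to 83.9 (median 38.9) in red and from 33.9 to 69.0 (median 42.2) in tangerine livers. H2-Ab1, the beta chain partner of H2-Aa (chromosome 17, positions 34257689 to 34269419), ran from 24.5 to 57 CPM (median 34.5) in control, from 23.5 to 80.5 (median 29.4) in red and from 23.2 to 53.5 (median 31.0) in tangerine. In both genes the 3 diets overlapped over nearly their whole ranges, and the high ends were set by single mice.

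H2-Eb1, the beta chain of I-E (chromosome 17, positions 34305867 to 34316674), ran from 8.76 to 26.1 CPM (median 13.5) in control, from 10.9 to 33.5 (median 12.4) in red and from 11.0 to 21.9 (median 13.6) in tangerine. C57BL/6 mice are known to make no I-E protein because their alpha chain gene is broken, so this transcript is read without its protein partner. Cd74, the invariant chain (chromosome 18, positions 60803848 to 60812652), ran from 72.8 to 144.6 CPM (median 89.3) in control, from 66.3 to 214.4 (median 90.0) in red and from 69.7 to 136.2 (median 87.5) in tangerine. Per kilobase of exon, the median over all 36 libraries was 52.8 CPM for Cd74, 12.0 for H2-Ab1, 11.1 for H2-Aa and 6.76 for H2-Eb1. The ranges of H2-Aa (7.45 to 22.1) and H2-Ab1 (9.04 to 31.3) on that scale overlapped, while the lowest Cd74 value, 39.5, lay above the highest of each of the other 3.

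**Figure D2:**
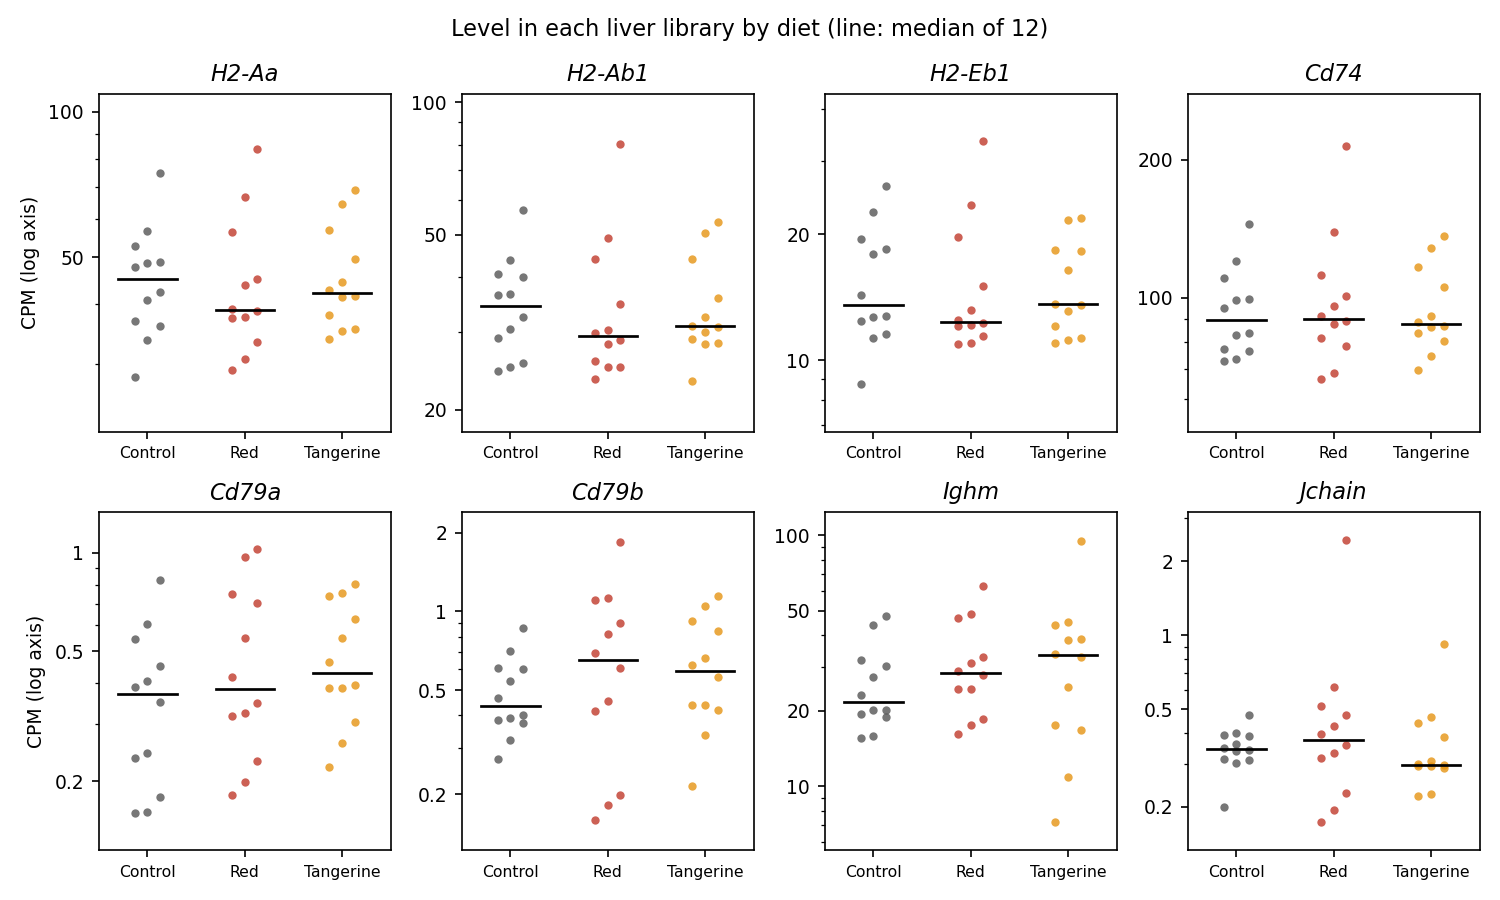
Level of the 8 measured transcripts in each library (CPM, log axis) by diet, 12 libraries a diet; black lines are medians. The diets overlap in every panel, red 177 is the highest point of the 4 class II genes, and red 186 is the highest point of Cd79a, Cd79b and Jchain (2.45 CPM).

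The differences between diets were tested with edgeR's quasi-likelihood test on all 14068 genes, with p-values adjusted by the Benjamini-Hochberg method. None of the 8 members tested passed an adjusted p of 0.05 in any of the 4 comparisons. Over all genes the share that passed was 0.149% for red against control, 0.0142% for tangerine against control, 1.71% for tangerine against red and 0.00711% for both tomato diets together against control. Against shares this small, a count of 0 among 8 genes does not set the members apart from other genes. At an unadjusted p under 0.05 there was 1 member, Jchain, in red against control, and none in the other comparisons. Of all genes 13.3%, 5.47%, 15.1% and 6.77% had such a p, in the order of comparisons above. The median log2 fold change of the 8 members was 0.19, 0.04, -0.04 and 0.19 in that order of comparisons, beside medians over all genes between -0.0118 and -0.0046. DESeq2's test also passed no member.

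For class II the estimates sat close to 0 with narrow intervals. The log2 fold change of H2-Aa was -0.01 ± 0.16 (SE, adjusted p = 0.984, edgeR) in red against control and 0.01 ± 0.16 in tangerine against control. That of H2-Ab1 was 0.01 ± 0.17 and -0.02 ± 0.17, and that of H2-Eb1 -0.01 ± 0.18 and -0.04 ± 0.18. Cd74 had the largest, 0.11 ± 0.15 (adjusted p = 0.797, edgeR) in red against control, with 6 of 12 red livers above the control median. Over the 4 genes and 4 comparisons the 95% intervals of the fold change lay between 0.749 and 1.33. Shifts of the mean beyond these limits lie outside all of the intervals. Some smaller shifts lie inside them, and what size of shift the test could detect was not worked out.

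The spread among mice of 1 diet was larger than any difference between diets, and it was shared by the 4 genes. Pairs of them had correlations of log2 CPM of 0.91 to 0.96 over the 36 libraries, 0.88 to 0.95 within control, 0.96 to 0.99 within red and 0.92 to 0.98 within tangerine. These values describe points that share library, depth and scaling. Red 177 was the highest library for all 4, with 412.3 CPM in sum, and control 182 was the next at 302.2, while the median was 171.3. Without red 177 the pairs still had correlations of 0.89 to 0.96. Without it the log2 fold changes in red against control moved to between -0.165 and -0.043 for the 4 genes, and without control 182 to between 0.073 and 0.18. The smallest of these adjusted p-values was 0.653 (edgeR).

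Red 177 was also the library richest in Kupffer cell transcripts. The 12 Kupffer markers summed to 500.2 CPM there, against 405.9 in the next library (control 188) and a median of 310.6, and 8 of the 12 had their highest value in red 177. C1qa, a complement subunit made by macrophages, was 57.3 CPM in red 177 and at most 42.0 elsewhere. Clec4f, the lectin that marks Kupffer cells, was 100.3 CPM there and 101.2 in control 188. Over the 36 libraries the correlation of Cd74 was 0.78 with C1qa and 0.41 with Clec4f. The other 3 class II genes had lower values. With C1qa these were 0.64 for H2-Aa, 0.62 for H2-Ab1 and 0.54 for H2-Eb1, and with Clec4f 0.3, 0.18 and 0.14. Without red 177 the 4 genes had 0.4 (H2-Eb1) to 0.7 (Cd74) with C1qa, and 0.05 to 0.37 with Clec4f. Other lists were also high in red 177. Leukocyte markers in general summed to 47.2 CPM there (median of all libraries 30.3) and adipose markers to 6.00 (median 3.035). B cell genes summed to 39.3 CPM (median 35.7) and endothelial markers to 282.3 (median 275.2). Dendritic cell markers, at 8.77 CPM, were below their median of 9.16. None of the 12 Kupffer markers passed the test in any comparison. The part of Kupffer or other cells in the class II values was not tested.

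The rest of the class II pathway gave the same picture between diets. Of 22 listed genes for peptide loading, class II transcription factors, endosomal proteases and costimulation, 18 were tested and 0 passed in each of the 4 comparisons. At an unadjusted p under 0.05 there were 1, 0, 1 and 1 of them, where 13.3%, 5.47%, 15.1% and 6.77% of all genes had such a p. Their median log2 fold changes were -0.02 in red against control and -0.04 in tangerine against control. H2-DMa, a chain of the peptide loader, had medians of 3.84, 3.99 and 3.89 CPM in control, red and tangerine. H2-DMb1, a beta chain of the loader, had medians of 3.30, 3.17 and 2.96 CPM, and H2-DMb2 of 0.986, 0.966 and 0.960. In tangerine against red 1 of the 18 passed with DESeq2's test (2.78% of all genes), with limma-voom (5.3%) and with only the compared groups in the fit (2.43%), and in red against control 1 passed with limma-voom (10.7%).

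By likeness across libraries, loading genes stood beside the chains. The gene most correlated with the mean class II profile, of all tested genes outside the list, was H2-DMa (r = 0.90), followed by Ly6a (0.80), the integrin subunit Itgb7 (0.80), the interferon induced GTPase Gbp2b (0.79), H2-DMb1 (0.78), the class I gene H2-Q7 (0.77) and the interferon gamma induced chemokine Cxcl9 (0.76). Fcgr4, Aif1 and Gbp3 followed at 0.73. Leaving out red 186 moved none of these 10 correlations by more than 0.04. H2-Ob, whose promoter is printed above, did not go with them: its correlation was -0.07 with H2-Aa and -0.13 with Cd74, and 0.69 with Cd79a (0.65 without red 186). With the other B lineage genes it was lower, at 0.47 with Cd79b (0.33 without red 186) and 0.26 with Ighm (0.18 without red 186). H2-DO is known mainly from B cells. At a median of 0.365 CPM its counts are sparse.

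**Figure D3:**
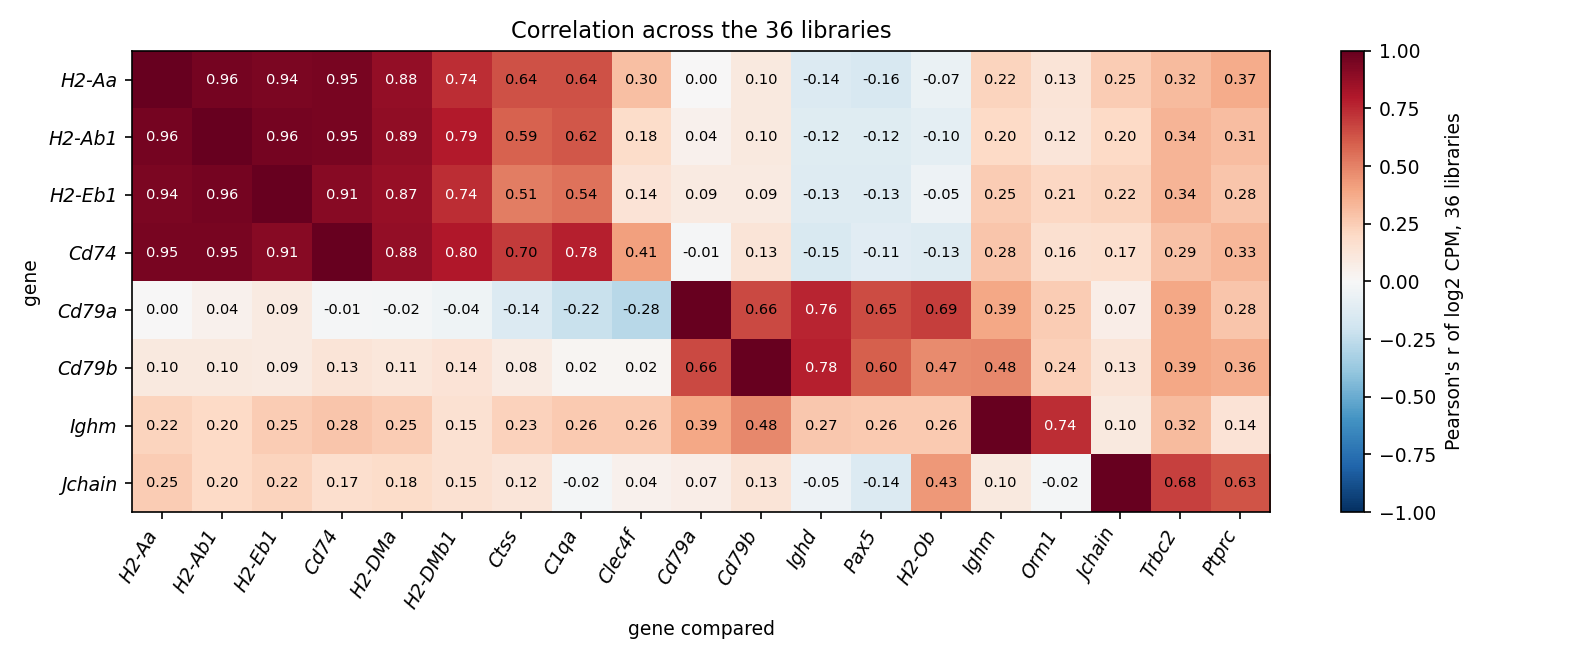
Pearson's r of log2 CPM over 36 libraries between the 8 measured transcripts (rows) and related genes (columns); diagonal cells of a gene with itself carry no number. The class II genes form a block with values of 0.91 and above, Cd79a and Cd79b have values of 0.76 and 0.78 with Ighd, and Ighm and Jchain stand outside both.

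The B cell receptor partners were close to the detection limit and did not pass in any comparison. Cd79a (chromosome 7, positions 24897381 to 24902197) ran from 0.160 to 0.826 CPM (median 0.370) in control, from 0.182 to 1.03 (median 0.382) in red and from 0.221 to 0.804 (median 0.429) in tangerine. Cd79b (chromosome 11, positions 106311341 to 106314762) ran from 0.273 to 0.865 CPM (median 0.433) in control, from 0.159 to 1.84 (median 0.650) in red and from 0.214 to 1.14 (median 0.594) in tangerine. The diets overlapped: for Cd79b, 4 red and 3 tangerine livers were above the highest control and 3 red and 1 tangerine below the lowest, and for Cd79a only 2 red livers were outside the control range. Red 186 was the highest library for both, with 34 counts of Cd79a and 61 of Cd79b.

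Cd79b had a log2 fold change of 0.53 ± 0.30 (SE, adjusted p = 0.459, edgeR) in red against control, with 8 of 12 red livers above the control median. Without red 186 it was 0.29 ± 0.29 (edgeR adjusted p = 0.701). In tangerine against control it was 0.37 ± 0.31, with 9 of 12 above. Cd79a gave 0.41 ± 0.29 (edgeR adjusted p = 0.571) and 0.37 ± 0.29 in the same comparisons, and 0.25 for red without red 186. Tangerine against red was -0.16 for Cd79b and -0.04 for Cd79a, and turned to 0.08 and 0.12 without red 186. The 95% interval of Cd79b in red against control spanned 0.946 to 2.21-fold.

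Of the other B cell genes 1 passed a test, Blnk, in tangerine against red, where 1.71% of all genes passed. The list holds 32 genes, of which 20 were tested. None passed against control, with 5 at an unadjusted p under 0.05 for red, 3 for tangerine and 3 for both tomato diets together, where 13.3%, 5.47% and 6.77% of all genes had such a p. DESeq2's test also passed none of them against control, and limma-voom passed 1 in red against control, beside 10.7% of all genes. The list's median log2 fold change was 0.28 in red against control and 0.17 in tangerine against control, and 0.15 and 0.17 without red 186. Cd22, an inhibitory lectin of B cells, was at 0.873 CPM (median of all 36), and Cd37, a leukocyte tetraspanin, had medians of 1.03, 1.39 and 1.14 CPM in control, red and tangerine.

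Blnk, the adaptor that links the B cell receptor to phospholipase C, ran from 1.26 to 3.33 CPM (median 1.88) in control, from 0.945 to 2.40 (median 1.75) in red and from 1.61 to 7.66 (median 2.69) in tangerine. Tangerine 242 was highest by far, with 200 counts, and the next was tangerine 192 at 3.94 CPM. The log2 fold change in tangerine against red was 0.83 ± 0.20 (SE, adjusted p = 0.0251, edgeR), and 0.84 (edgeR adjusted p = 0.0293) without red 186. The call was lost without tangerine 242 (0.62, adjusted p = 0.0553), without tangerine 217 (0.80, adjusted p = 0.0505), and without red 186 and tangerine 216 together (0.84, adjusted p = 0.0531). It was also lost with a clock gene score (0.46, adjusted p = 0.437) or the mouse number (0.70, adjusted p = 0.108) as covariate. With these covariates 0 and 32 of all 14068 genes passed in tangerine against red, so the loss was not particular to Blnk. In tangerine against control Blnk was 0.66 ± 0.20 (edgeR adjusted p = 0.587).

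Cd79a and Cd79b had a correlation of 0.66 over 36 libraries (0.61 without red 186), but of 0.29 within control, 0.84 within red and 0.62 within tangerine. Over the 36 libraries each had between -0.01 and 0.13 with the class II genes. Within tangerine Cd79b had 0.50 with Cd74, 0.48 with H2-Eb1, 0.35 with H2-Aa and 0.28 with H2-Ab1. Ighd, the IgD constant region of naive B cells, was the gene most like their mean profile (r = 0.85, and 0.84 without red 186). Map4k1 (0.76), a kinase of blood cells, Chst14 (0.71) and Pax5 (0.69), the factor that holds B cell identity, came next, then Fscn1 (0.67), Fntb (0.66), Ptafr, Hr and Dact2 (0.65 each) and Tmem43 (0.64). These correlations are descriptions over sparse counts. Ighd itself had medians of 0.702, 0.868 and 0.771 CPM in control, red and tangerine.

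Ighm, the mu heavy chain constant region of IgM (chromosome 12, positions 113418558 to 113422730, minus strand), was the most variable of the well counted members. It ran from 15.6 to 47.9 CPM (median 21.7) in control, from 16.2 to 62.7 (median 28.3) in red and from 7.23 to 95.4 (median 33.2) in tangerine. The highest library was 13.2 times the lowest, and both ends were tangerine livers: mouse 242 at 95.4 CPM, from 2490 counts, and mouse 226 at 7.23 CPM. The range of tangerine held those of the other diets within it.

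The log2 fold change of Ighm was 0.27 ± 0.29 (SE, edgeR adjusted p = 0.731) in red against control, with 9 of 12 red livers above the control median. It was 0.37 ± 0.29 (edgeR adjusted p = 1.0) in tangerine against control, with 8 of 12 above, and 0.10 without tangerine 242. In tangerine against red it was 0.10 ± 0.29, and -0.17 without tangerine 242. The 95% interval for tangerine against control spanned 0.855 to 1.94-fold.

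Ighm was out of proportion to the other B lineage transcripts. Per kilobase of exon its median was 14.6 CPM, against 0.406 for Ighd, 0.385 for Cd79b, 0.269 for Cd79a, 0.143 for Igha (the IgA constant region) and 0.134 for Jchain. Even its lowest library, at 3.84 CPM per kilobase, was above the highest Cd79b value, 1.29. The variable region genes, which are joined to the constant regions in mature B cells, were sparse by comparison. The table holds 218 of them, 177 with at least 1 count, and they summed to 2036 counts over all libraries, against 29846 for Ighm. A library had between 20 and 387 such counts, with a median of 46. Whether other genes enclose the variable region genes was not checked and the counting rule is not given. How completely the table counted them is therefore not known.

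The libraries richest in Ighm and in variable region counts were not the same. Tangerine 242, with the most Ighm, had 52 variable region counts. Red 186 had 387, and the next library, red 175, had 81. In red 186 the leading segments were Igkv9-120 with 44 counts, Igkv10-96 with 30 and Ighv2-9-1 with 21. Ighm had correlations of 0.39 with Cd79a, 0.48 with Cd79b, 0.27 with Ighd and 0.10 with Jchain over the 36 libraries.

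Jchain (chromosome 5, positions 88519809 to 88527891, minus strand) owed its difference in red livers to 1 library. It ran from 0.200 to 0.472 CPM (median 0.344) in control, from 0.173 to 2.45 (median 0.376) in red and from 0.221 to 0.920 (median 0.297) in tangerine. Red 186 held 81 counts, and the next library, tangerine 198, was at 0.920 CPM. Besides red 186, 2 red livers were above the highest control and 2 below the lowest.

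In red against control the log2 fold change of Jchain was 0.66 ± 0.32 (SE, p = 0.0449 and adjusted p = 0.365, edgeR), with 7 of 12 red livers above the control median. Without red 186 it was 0.08 ± 0.21 (edgeR adjusted p = 0.912). In tangerine against red it was -0.59 ± 0.32 (edgeR adjusted p = 0.374), and -0.01 ± 0.21 without red 186. In tangerine against control it was 0.07 ± 0.34. Its correlation with the T cell receptor gene Trbc2 was 0.68 over 36 libraries and 0.05 without red 186, and with the leukocyte gene Ptprc 0.63 and 0.07.

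**Figure D4:**
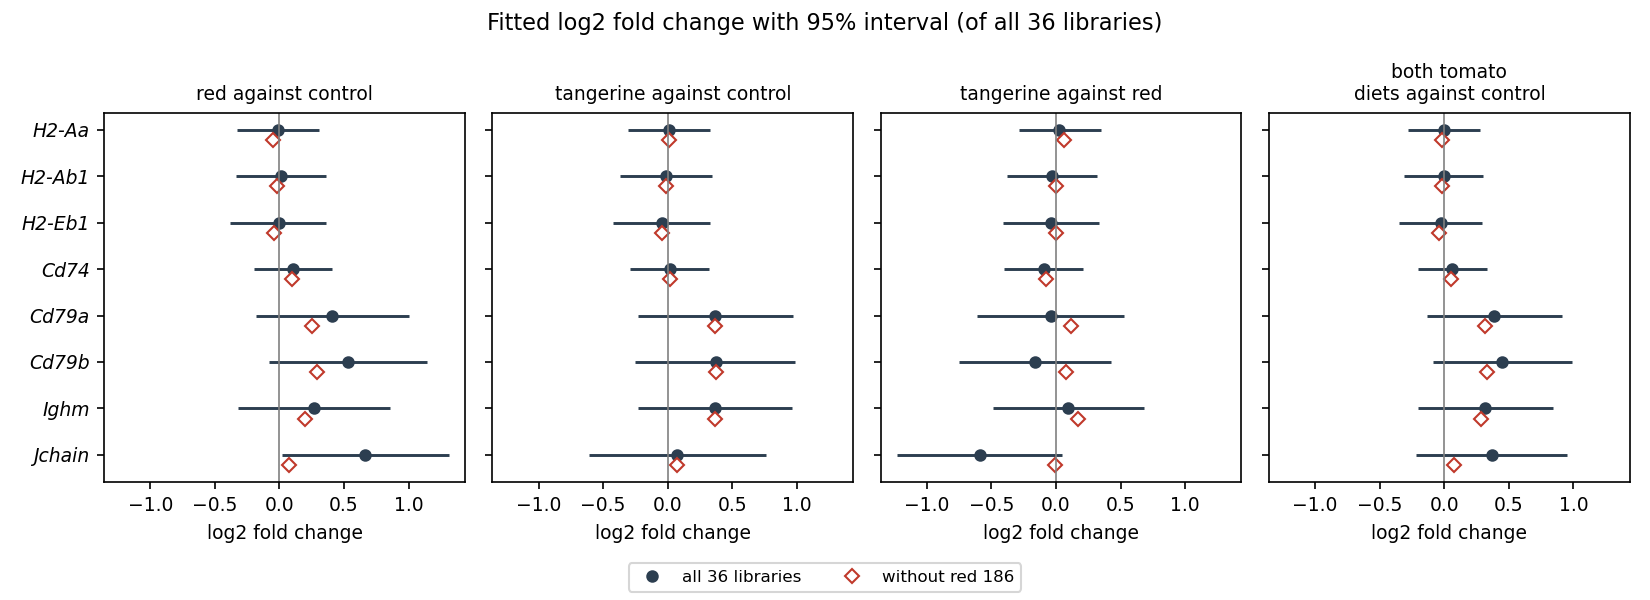
Fitted log2 fold change of the 8 measured transcripts (horizontal axis) in each comparison; filled points with 95% intervals use all 36 libraries, open diamonds leave out red 186. Class II points sit within 0.11 of 0, and the Jchain point of red against control moves from 0.66 to 0.08 without that library.

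Red 186 carried transcripts of several lymphocyte types at once. All 17 T cell markers had their highest value there, as did 11 of the 30 other B cell genes with counts and 5 of the 15 plasma cell genes. The summed level of the plasma cell list, which holds genes such as Xbp1 that liver also expresses, was the lowest of all libraries in red 186, at 1577 CPM. The plasma cell list gave 7 tested genes and 0 calls in each comparison. Some of the switched isotypes were picked out after their values were seen. Red 186 had 2.05 CPM of Ighg3 (at most 0.332 in any other library) and 1.45 of Ighg2b (at most 0.374). It had 1.93 of Igha (at most 1.14) and 0.846 of Ighe (at most 0.0369). The list also holds the isotypes Ighg1 and Ighg2c, which were not both highest in red 186. Class II was not at its highest in this library, which had the 8th highest sum of the 4 class II genes and the 30th highest of the Kupffer cell markers. The dendritic cell markers were highest there, at 14.6 CPM against at most 11.5 in any other library. So were the leukocyte markers in general, at 133.3 CPM against at most 58.4. Of 21 other class II pathway genes with counts, 5 had their highest value in red 186, while the sum of that list ranked 29th.

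The same library set the T cell calls between the tomato diets. In tangerine against red 3 of 8 tested T cell markers passed, beside 1.71% of all genes, all lower in tangerine: Trbc2 at -2.89 ± 0.75 (edgeR adjusted p = 0.0359), the kinase Lck at -2.59 and the surface protein Thy1 at -2.37 on the log2 scale. Without red 186 the values were 0.21, 0.08 and -0.03, and 0 passed. With it the calls were near the threshold: without tangerine 128, 198, 215, 216, 217 or 242, Trbc2 had edgeR adjusted p-values of 0.0516 to 0.0702. DESeq2's test, limma-voom and only the groups compared gave 0 T cell calls, beside 2.78%, 5.3% and 2.43% of all genes. Either covariate also gave 0, where 0 (clock gene score) and 32 (mouse number) of all 14068 genes passed. The log2 fold change of Trbc2 was 0.22 (adjusted p = 0.679) in DESeq2's test. The thymocyte marker Satb1 went from -2.95 to 0.32 in the same way. The thymocyte genes Rag1, Rag2 and Ptcra and the lymph node genes Ccl21a and Ccl19 were at 0 in every library, but all 5 lie inside other genes, so their zeros carry no information here. Glycam1 and Nkx2-5 of the lymphoid stroma list, which no other gene overlaps, were also at 0 in every library, red 186 among them. Among protein-coding genes that no other gene overlaps, 22.8% had such zeros. The lists for dendritic cells, neutrophils and monocytes, blood, sinusoidal endothelium, leukocytes in general, lymphoid stroma, hepatocytes and adipose tissue gave 0 calls in each comparison, though only 2 neutrophil and monocyte genes, 2 stroma genes and 1 adipose gene were tested. None of the pancreas genes was tested. Where the lymphocyte and adipose transcripts of red 186 came from was not tested.

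**Figure D5:**
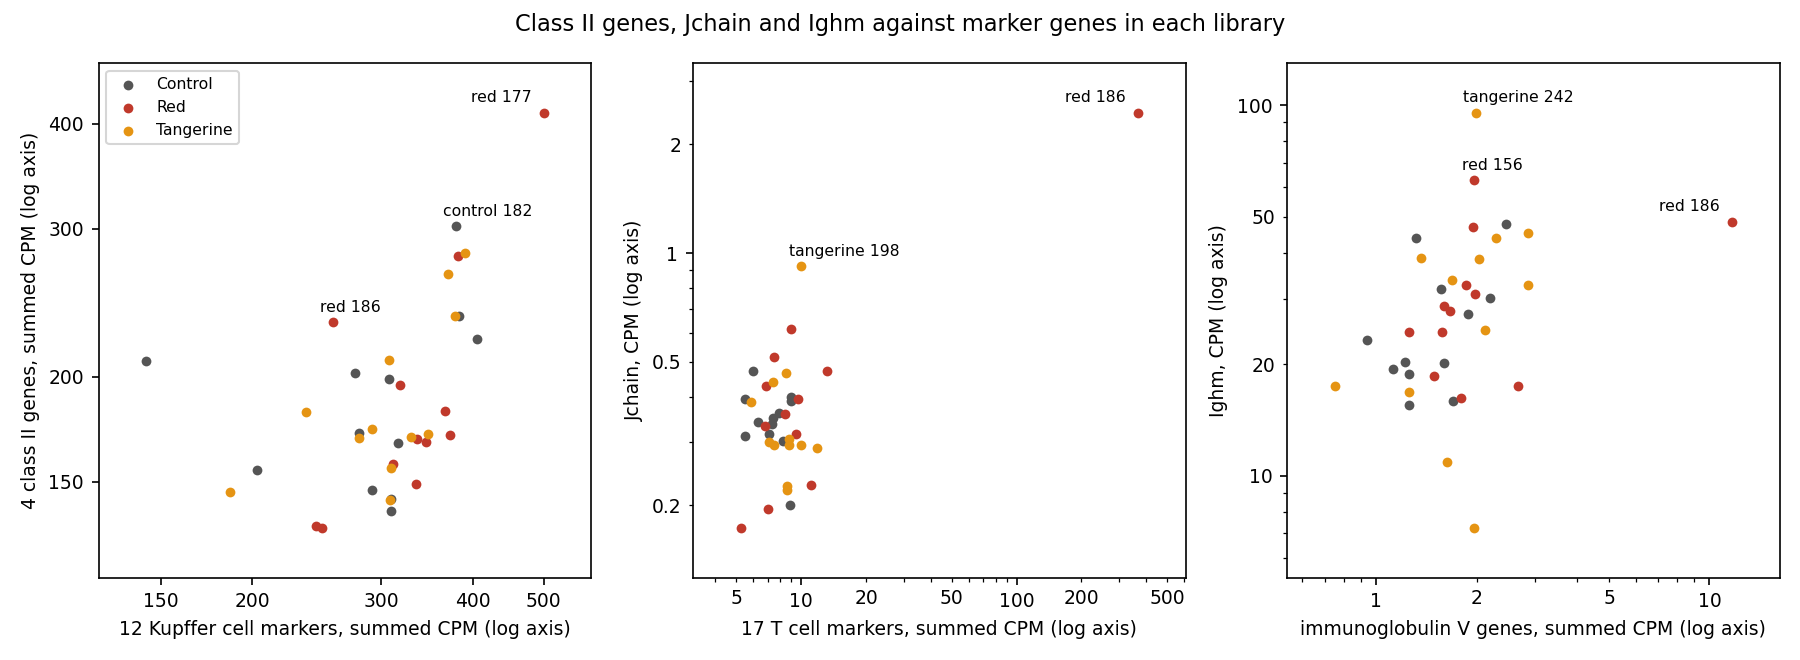
Each point is 1 library, colored by diet, on log axes in CPM: 4 class II genes against 12 Kupffer cell markers (left), Jchain against 17 T cell markers (middle), and Ighm against immunoglobulin variable region genes (right). Red 177 is high for both class II and Kupffer markers, and red 186 for Jchain, T cell markers (365.6 CPM) and variable regions. Of the levels plotted, tangerine 242 is high for Ighm alone.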

How the data were processed

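The authors deposited raw read counts per gene for 36 liver libraries in a single table without normalization. Per the submitters' processing notes, FastQC, Trimmomatic and edgeR were used with build GRCm38.p6, and per the labels' protocols libraries came from a directional kit. The aligner, the counting program and its rule for overlapping genes are not given in the sources used here. Identifiers were matched to GENCODE mouse release 21 symbols (53620 of 53715, 95 without a symbol). Genes were filtered with filterByExpr, scaled by TMM and fitted together over the 3 diets with edgeR 4.0.16 (R 4.3.3) using robust quasi-likelihood F tests and Benjamini-Hochberg adjustment at 0.05, after the script was tested on simulated data. CPM values use TMM-scaled totals, and correlations use log2 CPM with a prior count of 2. Alternatives used DESeq2 1.42.0, limma 3.58.1, other filters, covariates and left-out libraries.

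The members, the 15 marker lists and the alternatives were chosen with earlier results of these data known. The text names the members, list genes that passed the test or head their list, the 10 genes most like each profile, and libraries whose marker sum lies outside all others; Ighd, Pax5 and H2-DM genes enter by these rules, and others are marked as chosen after their values were seen. H2-Ob, C1qa, Clec4f, Ptprc and the zeros at overlapped genes were also chosen after seeing the data. Diet groups come from the labels, where the mice are separate animals. Intervals cover counting error and the fitted spread among mice only, and floors cover counting error only. Counts below about 10 per library, as for Cd79a, limit precision.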

Additional observations from a re-analysis of the deposited data

How the results depend on the processing

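No member passed in any comparison under DESeq2 size factors, no filter on low counts, DESeq2's test, limma-voom with sample weights, only the groups compared, without red 186 and tangerine 216, with the clock gene score or the mouse number as covariate, or in any of the 36 refits that left out 1 library (0 to 0 of 8). Over all genes, the number that passed in these settings, the 36 refits aside, differed widely. It ran from 0 of 14068 (tangerine against red, clock gene score) to 1504 of 14068 (red against control, limma-voom). A count of 0 among 8 genes therefore does not set the members apart here either. No paired analysis was possible because each mouse number occurs in 1 diet only. In some of the 36 refits signs turned without mice other than red 186. On the log2 scale, Ighm in tangerine against red was -0.167 without tangerine 242. Jchain in tangerine against control was -0.119 without tangerine 198, and Cd74 in red against control -0.043 without red 177. In the other settings signs turned where estimates were near 0 or rested on red 186, as follows on the log2 scale. With limma-voom, red against control was -0.16 for H2-Ab1 and -0.035 for Cd74, tangerine against control -0.018 for H2-Aa, tangerine against red 0.14 for H2-Ab1, 0.11 for H2-Eb1, 0.04 for Cd74, 0.16 for Cd79a, 0.18 for Cd79b and -0.052 for Ighm, and both tomato diets against control -0.089 for H2-Aa and -0.015 for Cd74. Without red 186 and tangerine 216, red against control was -0.02 for H2-Ab1, tangerine against red 0.018 for H2-Ab1, 0.015 for H2-Eb1, 0.1 for Cd79a, 0.12 for Cd79b and 0.017 for Jchain, and both against control -0.011 for H2-Aa. With the clock gene score, tangerine against red was 0.31 for Cd79a and 0.41 for Cd79b, and both against control -0.0097 for H2-Aa and 0.00016 for H2-Ab1. With the mouse number, red against control was 0.0013 for H2-Eb1, tangerine against red -0.0052 for Ighm, and both against control 0.0039 for H2-Ab1. The last was 0.00096 with DESeq2 size factors, 0.0032 without the filter and 0.00072 with DESeq2's test. Beyond leaving out libraries, the cause of these turns was not tested. The marker list counts without red 186 alone, and the values of Blnk without single libraries, were chosen after seeing the data.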

Other observations

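Ighm had another set of like genes than the other B lineage transcripts. The profile of Ighm alone, tried after seeing the data, was most like Atg16l2 (r = 0.75 over 36 libraries), Orm1 (0.74), Klk1b4 (0.72), Gm7390 (0.71), 4930452B06Rik (0.71), the lipid droplet genes Pnpla5 (0.70) and Pnpla3 (0.69), Gm35986 (0.69), Chrna4 (0.67) and the lipoprotein receptor Lsr (0.67). Orm1, an acute-phase glycoprotein secreted by hepatocytes that has near-identical copies in the genome, had a median of 449.2 CPM and a correlation with Ighm of 0.78 without red 186 and 0.69 without tangerine 242. With Ptprc, carried by all leukocytes, Ighm had 0.14. None of these genes passed the test between diets.

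The joint profile of Ighm and Jchain, set with the other rules, was led by Impdh1 (0.79), Gm4739 (0.77), Cd4 (0.75), Rrm1, Mcm5 and Fam78a (0.69 each), Fabp4 and Trac (0.68 each), and Trbc2 and Itm2a (0.67 each). Without red 186 these 10 values lay between 0.31 (Trbc2) and 0.63 (Impdh1).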
